A study of Mus musculus with 24 samples.

Results

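The arrays described here ask what loss of CHOP did to gene expression in the sciatic nerve of S63del mice at postnatal day 28 (P28), near the peak of myelination. They are the 2 arrays of S63del/Chop null nerve and the 2 arrays of S63del nerve at that age, chosen by their titles, 4 of the 24 arrays of the series. All 22690 probe sets of the deposited table were considered. Both groups carry S63del, a mutant form of the myelin protein P0 used as a mouse model of Charcot-Marie-Tooth neuropathy 1B. S63del/Chop null mice in addition lack Chop, the gene listed as Ddit3. The 2 Chop null and the 2 wild type (WT) arrays of the same age are given beside them, and the same genotypes at P5 and 4 months, with 2 arrays each, where ages are compared. The labels give each pair as biological replicates. They name neither the number of nerves or mice per array nor the sex. The nerves were stripped of their perineurial sheath, frozen and pulverised before RNA was extracted.

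CHOP is a transcription factor of the unfolded protein response, the set of pathways that a cell starts when misfolded protein collects in the endoplasmic reticulum (ER). The kinase PERK phosphorylates eIF2alpha, which slows translation but favours that of ATF4, and ATF4 in turn induces Ddit3. Among the genes CHOP is known to raise are Ppp1r15a, which encodes GADD34, the subunit that brings a phosphatase back to eIF2alpha, and Ero1a, an oxidase of the ER. The IRE1 and ATF6 arms of the response raise ER chaperones such as Hspa5 (BiP) without CHOP. In myelinating Schwann cells P0 is the main glycoprotein of the myelin sheath, so its folding is a large part of the ER's load.

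Values are log2 expression as deposited, so a difference of 1 is a doubling. Each difference is S63del/Chop null minus S63del from limma, with its 95% interval in parentheses, and a gene was called at an adjusted p under 0.05 among 12393 genes. A gene was represented by its brightest probe set. With 2 arrays against 2 an exact two-sided permutation test of a single gene cannot go below p = 0.333, so the error comes from the spread of all 12 groups of the series.

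Ddit3 was the only gene called. It measured 6.78 and 6.76 in S63del/Chop null, 9.13 and 9.05 in S63del, 6.84 and 7.37 in Chop null, and 8.19 and 8.16 in WT. The arrays of both genotypes that lack Chop lay below those of both that carry it, with no overlap. The difference was -2.32 ± 0.19 (SE; -2.73 to -1.91), 4.98-fold lower in S63del/Chop null (adjusted p = 1.63e-05). In S63del the signal of Ddit3 was above that of 78.6% of genes, and in S63del/Chop null above that of 42.4%. An array signal of this size in mice that lack the gene is given as measured. What it consists of was not tested.

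**Figure D1:**
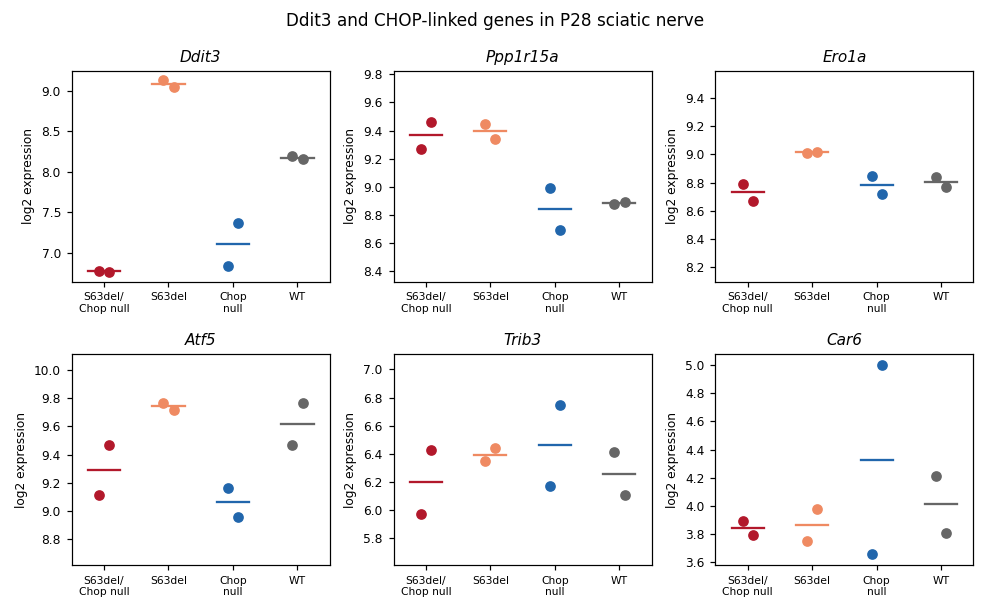
Log2 expression of Ddit3 and 5 CHOP-linked genes on the 8 arrays at P28, by genotype; each point is 1 array and each bar the mean of 2. Ddit3 separates the genotypes with and without Chop, while Ppp1r15a has overlapping arrays in S63del/Chop null and S63del.

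No other gene passed the threshold in either direction. The single call is 0.00807% of the genes tested, 0 higher and 1 lower. With all 22626 probe sets other than controls tested one by one, the count was again 1, a probe set of Ddit3 (0.00442%). An unadjusted p under 0.05 was found for 466 genes or 3.76%, below the 5% that the threshold alone allows. The median difference of all genes was -0.02, and 54.6% lay below 0. For 12176 genes, 98.2% of those tested, the whole 95% interval lay within 1 log2 unit of 0. The median half-width of the intervals was 0.34. These intervals are not adjusted for the number of genes, and larger differences also went uncalled. Ddit3, Alas2 and Ppbp differed by more than 1. Alas2 was -1.25 and Ppbp, a platelet chemokine, -1.09, each with an adjusted p = 1, and without S63del replicate 2 they were -0.78 and -0.25.

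The arrays of the genotypes compared were as near to each other as replicates. The SD over genes of the log2 difference between 2 arrays was 0.246 to 0.274 for the 4 pairs of an S63del/Chop null and an S63del array. It was 0.30 between the S63del/Chop null replicates and 0.272 between the S63del replicates. Within both of these replicate pairs the skeletal muscle signal differed, as given below. Across the genotypes, pairs of like muscle signal gave 0.246 and 0.254, and pairs of unlike signal 0.273 and 0.274. The part of muscle signal in these values was not tested. Pairs of an S63del and a WT array gave 0.316 to 0.467. The Chop null replicates stood apart, at 0.555, against 0.292 for the WT replicates. All 12 groups enter the spread estimated for each gene, that pair included.

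**Figure D2:**
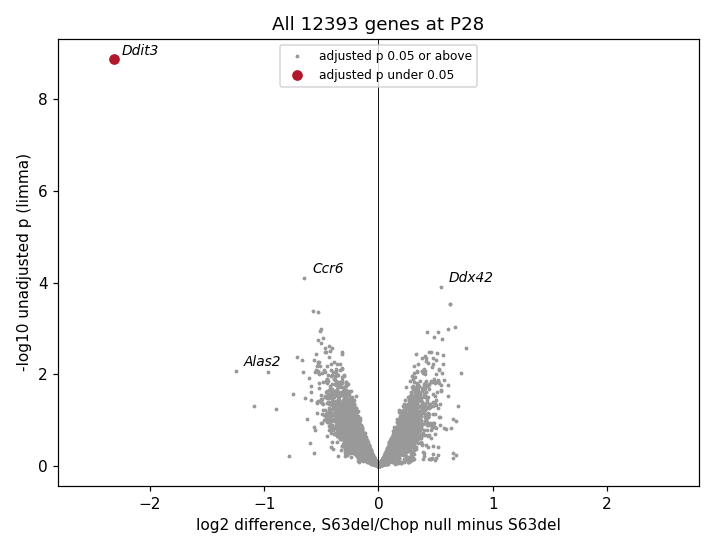
Difference in log2 expression, S63del/Chop null minus S63del at P28 (horizontal axis), against -log10 of the unadjusted limma p (vertical axis); each point is 1 of 12393 genes. Ddit3, the only gene with an adjusted p under 0.05, is far from all others, and Alas2 is the next lowest by difference.

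All 4 arrays carried the markers of myelinating Schwann cells at a high level, with a mean over Mbp, Mag, Pmp22 and Egr2 of 12.49 and 12.61 in S63del/Chop null and 12.54 and 12.53 in S63del. In whole nerve, fewer cells of a type and less RNA per cell cannot be told apart. Skeletal muscle transcripts differed between the arrays within each group and not in step with genotype. The mean level of 24 muscle genes was 9.90 and 7.52 in S63del/Chop null, and 7.41 and 9.60 in S63del. Acta1, skeletal actin, measured 12.82 and 9.85 in S63del/Chop null, and 8.85 and 12.45 in S63del. Each group therefore held 1 array with more and 1 with less of these transcripts, and only 1 of the 24 muscle genes had an interval within 1 log2 unit. Fat cell genes also varied within groups, with a mean of 9.40 and 10.36 over 17 genes in S63del/Chop null and 9.76 and 10.20 in S63del. The 3' to 5' differences of Gapdh (0.09 and 0.29, against 0.17 and 0.39) and of Actb (0.70 and 0.86, against 0.77 and 0.78) were alike in S63del/Chop null and S63del. The control probe set for 18S ribosomal RNA measured 6.02 and 5.92 in S63del/Chop null and 6.19 and 6.71 in S63del, but 9.67 and 10.57 in Chop null and 9.65 and 9.43 in WT. That gap runs with the mutant in every comparison with WT or Chop null given below, and its part in those was not tested.

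The known targets of CHOP were examined next. Of 17 measured genes linked to CHOP, 1 fell (Ddit3), 0 rose and 16 did not pass. An unadjusted p under 0.05 was found for 4 of them (23.5%, against 3.76% of all genes), namely Ddit3, Ero1a, Tnfrsf10b and Atf5. The median was -0.09, and 13 of 17 (76.5%) lay below 0, against 54.6% of all genes. Because Ddit3 is the deleted gene, its fall is part of the design, yet it is counted in both of these shares and in the median.

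Ppp1r15a, the CHOP target described above, measured 9.27 and 9.46 in S63del/Chop null, 9.45 and 9.34 in S63del, 8.99 and 8.69 in Chop null, and 8.88 and 8.89 in WT. The arrays of both S63del genotypes overlapped and lay above all 4 others. The difference was -0.03 (-0.41 to 0.36). In S63del against WT it was 0.51, with an adjusted p = 0.119. Its partner Ppp1r15b, which encodes the form of the same phosphatase subunit that is always made, differed by 0.12 (-0.20 to 0.44).

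Ero1a measured 8.79 and 8.67 in S63del/Chop null and 9.01 and 9.02 in S63del. Its groups did not overlap, but the difference of -0.28 (-0.50 to -0.06) had an adjusted p = 1 and turned to 0.15 when its probe sets were averaged. Ero1b, the related oxidase, measured 7.63 and 7.87 in S63del/Chop null, against 7.73 and 7.81 in S63del. It was called higher in S63del than in WT (0.99, adjusted p = 0.0309), as 4.62% of all genes were called in either direction, and differed by -0.02 (-0.54 to 0.50) with loss of Chop. The S63del arrays enter both of these comparisons, here and wherever both are given.

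Atf5, a factor related to ATF4 that CHOP is known to induce, was 9.11 and 9.47 in S63del/Chop null and 9.77 and 9.72 in S63del. It was 9.16 and 8.96 in Chop null and 9.47 and 9.77 in WT. Both genotypes without Chop thus had the lower means. The difference between S63del/Chop null and S63del was -0.69 (-1.05 to -0.34) at P5, -0.45 (-0.81 to -0.10) at P28 and -0.59 (-0.95 to -0.23) at 4 months. None of these passed the threshold (adjusted p from 0.999 to 1), although all 3 intervals lay below 0. Trib3, a pseudokinase that restrains this response, differed by -0.54 (-0.92 to -0.15) at P5, -0.20 (-0.58 to 0.19) at P28 and -0.12 (-0.51 to 0.26) at 4 months.

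Tnfrsf10b, a death receptor that CHOP raises in other cells, measured 4.91 and 4.53 in S63del/Chop null and 5.47 and 4.82 in S63del, and the groups overlapped. Its other probe set differed by 0.08. Bbc3, which encodes the cell death protein PUMA, was highest of the list, at 0.21 (-0.18 to 0.60). Of 19 genes of apoptosis and the p53 response, 0 passed and the median was 0.00. Mdm2, which restrains p53, measured 8.96 and 8.93 in S63del/Chop null and 8.74 and 8.51 in S63del (0.32; 0.03 to 0.60; adjusted p = 1).

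ATF4 and CHOP bind a shared DNA element, in which sites for C/EBP and ATF proteins are joined. It was searched as TGATGNAA on both strands of RefSeq promoters (GRCm38.p6), 250 bases before to 50 after each gene's start. It stood in 3.97% of 32851 promoters, and in 3.13% of the measured genes with a promoter. Among the 50 measured genes of the CHOP-linked and ATF4 lists it stood in 12 of 42 with a promoter. Of the CHOP-linked genes only Trib3, which is also on the ATF4 list, held it. The promoters of Ddit3 and Ppp1r15a did not hold these letters in this window. Of the 12 genes with a match, 6 are shown to set the element beside its genes' values. Sequences are written 5′ to 3′ on the strand of the gene with the match in capitals.
Trib3 (chr2:152344029-152344056): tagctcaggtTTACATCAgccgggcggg
Chac1 (chr2:119351039-119351066): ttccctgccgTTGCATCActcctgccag
Asns (chr6:7693215-7693242): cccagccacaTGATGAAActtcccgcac
Atf3 (chr1:191183426-191183453): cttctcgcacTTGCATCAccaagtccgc
Herpud1 (chr8:94386307-94386334): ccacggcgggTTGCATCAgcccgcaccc
Slc7a11 (chr3:50443662-50443689): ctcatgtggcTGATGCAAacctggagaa
Asns and Slc7a11 hold the element as searched, and the other 4 its reverse complement. Slc7a11 also holds the reverse complement a little further on (chr3:50443643-50443670): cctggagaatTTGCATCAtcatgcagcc. The genes of Chac1 and Herpud1 lie on the plus strand and the others on the minus strand.

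Genes with the element were not set apart in this comparison. Of 9882 measured genes with a promoter, 309 held it (3.13%), and their median difference was -0.01, against -0.02 in the 9573 without it. None of the 309 passed the threshold, and 13 (4.21%) had an unadjusted p under 0.05 in limma, against 353 (3.69%) of the others. Of the genes printed above, Chac1, which degrades glutathione, measured 6.25 and 6.43 in S63del/Chop null and 5.97 and 6.31 in S63del. Herpud1, a part of the ER degradation machinery, was 9.87 and 10.11 in S63del/Chop null and 10.05 and 10.01 in S63del. Slc7a11, the cystine transporter, differed by 0.18 (-0.37 to 0.72) at low signal.

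Targets of ATF4, which acts above CHOP, gave no call. None of 34 measured genes passed, the median was -0.02, and 33 had an interval within 1 log2 unit. Atf4 itself measured 10.78 and 10.47 in S63del/Chop null and 10.61 and 10.62 in S63del. Asns, which makes asparagine, was 8.72 and 8.74 in S63del/Chop null, 8.57 and 8.43 in S63del, 7.40 and 7.94 in Chop null, and 7.64 and 7.82 in WT. It was called higher than WT in both S63del/Chop null (1.00, adjusted p = 0.00127) and S63del (0.77, adjusted p = 0.00743), comparisons that share the WT arrays. In S63del/Chop null against WT 4.4% of all genes were called. Atf3, a stress-induced factor of the same family, was 8.19 and 8.44 in S63del/Chop null, 8.08 and 8.27 in S63del, 7.01 and 7.12 in Chop null, and 6.81 and 7.21 in WT, and the S63del/Chop null and S63del arrays overlapped. The loss of Chop left it 0.14 (-0.28 to 0.55) from S63del.

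Slc3a2, the heavy chain of several amino acid transporters, was 0.28 higher (-0.01 to 0.58) in S63del/Chop null. Vegfa, the vascular growth factor, was the highest of the list and Cbs, which makes cystathionine, the lowest, at 0.48 (0.12 to 0.85) and -0.38 (-0.68 to -0.08), each with an adjusted p = 1. The other probe set of Vegfa gave -0.08 and that of Cbs -0.40. Of 18 measured cytosolic aminoacyl-tRNA synthetases, which load tRNAs and include ATF4 targets, 0 passed and 14 lay below 0 (77.8%, against 54.6% of all genes), with a median of -0.10. Lars, the leucine enzyme, measured 9.10 and 8.97 in S63del/Chop null and 9.38 and 9.36 in S63del, the lowest of the list at -0.33 (-0.57 to -0.10). It was called higher in S63del than in WT (0.49, adjusted p = 0.0178), while S63del/Chop null against WT gave 0.16 (adjusted p = 0.433). These comparisons share the WT arrays and do not test the difference between them, and the direct difference of -0.33 was not called.

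ER folding genes and the sensors of the unfolded protein response gave no call either. These lists hold Ero1a, Ero1b and Ppp1r15a as well, which are also in the CHOP-linked list. Of 32 ER chaperone and folding genes, 0 passed, the median was -0.01 and all 32 intervals lay within 1 log2 unit. Hspa5 measured 12.91 and 12.93 in S63del/Chop null, 13.05 and 13.06 in S63del, 11.97 and 11.22 in Chop null, and 11.52 and 12.02 in WT. Its difference was -0.14 (-0.59 to 0.32), and it was called higher than WT both in S63del/Chop null (1.15) and in S63del (1.28). Hsp90b1 (GRP94) differed by 0.18 (-0.09 to 0.44) and Pdia6, a protein disulfide isomerase, by -0.21 (-0.53 to 0.11). Txndc11, a thioredoxin-like ER protein, was the highest of the list at 0.40 (0.07 to 0.73).

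The list of ER-associated degradation and translocation held 32 measured genes, of which 0 passed and the median was -0.04. Derl3, a channel component of that pathway, measured 7.50 and 7.70 in S63del/Chop null and 8.21 and 7.74 in S63del, and 6.65, 7.59, 6.54 and 6.81 in the Chop null and WT arrays. Fbxo2, which recognises glycoproteins to be degraded, was 6.23 and 6.06 in S63del/Chop null and 6.61 and 6.24 in S63del. Both were called higher than WT, by 0.92 and 0.85 in S63del/Chop null and by 1.30 and 1.13 in S63del. Of 17 genes of the sensors and of eIF2alpha kinases and phosphatases, 0 passed and the median was 0.03. Xbp1, the factor that IRE1 splices, differed by 0.02 (-0.25 to 0.29).

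Heat shock genes of the cytosol likewise gave no call. None of 22 passed, with a median of 0.01. Hspa1a, an inducible HSP70, measured 8.79 and 9.16 in S63del/Chop null, 8.56 and 8.69 in S63del, 6.26 and 5.46 in Chop null, and 5.50 and 6.14 in WT. Every S63del and S63del/Chop null array lay above every Chop null and WT array. It was 3.16 higher than WT in S63del/Chop null (adjusted p = 2.72e-05) and 2.81 higher in S63del (adjusted p = 6.81e-05), and differed by 0.35 (-0.29 to 0.98) between them.

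**Figure D3:**
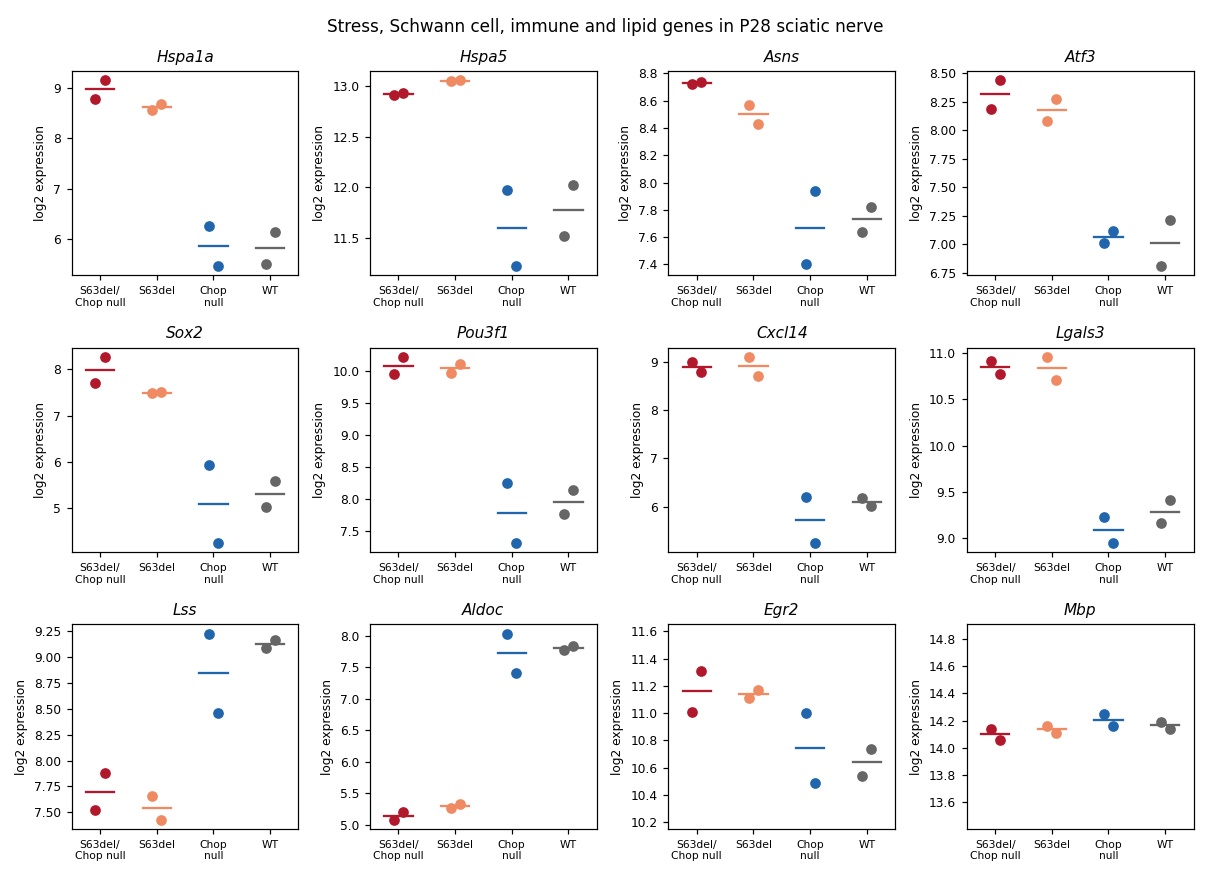
Log2 expression of 12 stress, Schwann cell, immune and lipid genes on the 8 arrays at P28; each point is 1 array and each bar the mean of 2, and each panel has its own vertical scale. In the first 8 panels both S63del genotypes lie above Chop null and WT, in Lss and Aldoc below them, and Mbp shows no such gap.

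Myelin genes did not differ detectably between S63del/Chop null and S63del. Of 19 measured genes of myelin proteins and galactolipid enzymes, 0 passed and all 19 intervals lay within 1 log2 unit. Their median was 0.03 and their range -0.05 to 0.19. Mbp, the myelin basic protein, measured 14.14 and 14.06 in S63del/Chop null and 14.16 and 14.11 in S63del, and Pmp22, a membrane protein of compact myelin, 14.25 and 14.23 in S63del/Chop null and 14.27 and 14.21 in S63del. Both lie near the top of the scale on all 8 arrays, where the array's signal may be compressed. Mag, the myelin-associated glycoprotein, was 10.56 and 10.85 in S63del/Chop null and 10.62 and 10.62 in S63del.

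Ugt8a, which makes galactosylceramide, was 0.09 (-0.18 to 0.36) from S63del, and Dhh, the Schwann cell's hedgehog ligand, 0.12 (-0.12 to 0.36). Egr2, the transcription factor of myelination, measured 11.01 and 11.31 in S63del/Chop null, 11.11 and 11.17 in S63del. In WT it measured 10.54 and 10.74. Sox10, which marks the whole Schwann cell lineage, was 11.25 and 11.77 in S63del/Chop null and 11.27 and 11.49 in S63del. The gene of P0 itself was not analysed here.

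Lipid synthesis genes, several of which were called lower in S63del than in WT, gave no call with loss of Chop. Of 19 cholesterol synthesis genes, 0 passed and the median was -0.01. Against WT the same 19 had a median of -0.56 in S63del/Chop null, with 4 called lower, and of -0.51 in S63del, with 4 called lower. Of all 12393 genes, 211 were called lower than WT in S63del/Chop null and 199 in S63del. Lss, lanosterol synthase, measured 7.52 and 7.88 in S63del/Chop null, 7.66 and 7.43 in S63del, 9.22 and 8.46 in Chop null, and 9.08 and 9.16 in WT. Both S63del genotypes lay below every other array, and their difference was 0.15 (-0.45 to 0.75). Fdft1, squalene synthase, was 0.23 lower (-0.60 to 0.15).

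The synthesis of fatty acids and sphingolipids was read from 27 genes, of which 0 passed and the median was 0.02. Against WT, 2 were called lower in S63del/Chop null (median -0.31) and 5 in S63del (median -0.30), beside 211 and 199 of all 12393 genes. Me1, the malic enzyme that supplies NADPH, measured 10.15 and 10.37 in S63del/Chop null and 9.89 and 9.99 in S63del, the highest of the list at 0.32 (-0.02 to 0.66). Scd2, a desaturase, was 12.99 and 13.15 in S63del/Chop null and 12.88 and 12.96 in S63del. Scd2 was called lower in S63del than in WT (-0.46, adjusted p = 0.0252). Aldoc, a glycolytic aldolase, measured 5.08 and 5.20 in S63del/Chop null, 5.27 and 5.33 in S63del, 8.03 and 7.41 in Chop null, and 7.77 and 7.83 in WT. Against WT it was called lower, at -2.66 in S63del/Chop null and -2.50 in S63del.

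Genes of immature and repair Schwann cells, several of them called higher in S63del than in WT, gave no call. Of 34 measured, 0 passed in either direction, and the median was 0.07. Against WT, 12 were called higher in S63del/Chop null (median 0.32) and 11 in S63del (median 0.29), with 0 lower in both. Of all 12393 genes, 334 were called higher than WT in S63del/Chop null and 373 in S63del. Sox2, which keeps Schwann cells immature, measured 7.71 and 8.27 in S63del/Chop null, 7.49 and 7.50 in S63del, 5.92 and 4.24 in Chop null, and 5.02 and 5.58 in WT. It was the highest of the list at 0.49 (-0.30 to 1.29). Pou3f1 (Oct6), the factor of the promyelinating stage, was 9.95 and 10.22 in S63del/Chop null and 9.97 and 10.11 in S63del.

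Id2, an inhibitor of differentiation factors, was 9.79 and 10.02 in S63del/Chop null and 9.80 and 9.77 in S63del. Jun, the factor of the repair state, was 9.24 and 9.68 in S63del/Chop null and 9.17 and 9.08 in S63del. Its other probe set differed by -0.02. Ngfr, the p75 neurotrophin receptor, differed by 0.30 (-0.12 to 0.73). Uchl1, a ubiquitin hydrolase, differed by 0.18 (-0.45 to 0.82), and Wif1, a secreted Wnt inhibitor, by 0.24 (-0.80 to 1.28). All 7 of these genes were called higher than WT in both S63del genotypes.

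Cell cycle genes lay slightly lower. Of 36, 0 passed, 28 lay below 0 (77.8%, against 54.6% of all genes), and the median was -0.07. Against WT, 3 were called higher and 1 lower in S63del/Chop null (median 0.11), and 6 higher and 1 lower in S63del (median 0.30). Among all 12393 genes these counts were 334 and 211 in S63del/Chop null, and 373 and 199 in S63del. Plk1, a mitotic kinase, measured 6.002 and 5.92 in S63del/Chop null and 6.37 and 6.61 in S63del (-0.53; -0.88 to -0.18; adjusted p = 1). Pcna, the sliding clamp of replication, was 11.02 and 10.70 in S63del/Chop null and 11.25 and 11.10 in S63del. Rrm2, a subunit of ribonucleotide reductase, was in contrast the highest of the list, with 6.30 and 6.34 in S63del/Chop null and 5.66 and 6.17 in S63del. Its other probe sets differed by 0.10 and -0.02. The median of the list was 0.01 in 1 pair of arrays and -0.17 in the other when the arrays were paired by their muscle level.

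Immune genes gave small differences, none of them called. Of 32 macrophage genes, 25 lay below 0 (78.1%, against 54.6% of all genes), and the median was -0.11. Against WT, 3 were called higher in S63del/Chop null (median 0.07) and 6 in S63del (median 0.23), beside 334 and 373 of all 12393 genes. Counts of calls in comparisons that share the WT arrays do not test the difference between them. Fcgr1, an Fc receptor, measured 6.67 and 6.58 in S63del/Chop null and 7.06 and 7.09 in S63del (-0.45; -0.79 to -0.11; adjusted p = 1). Cd14, the co-receptor for bacterial lipopolysaccharide, was 8.44 and 8.45 in S63del/Chop null and 8.71 and 8.66 in S63del. Lyve1 was the highest of the list at 0.44. The macrophage markers Csf1r, Adgre1 and C1qa differed by -0.04, -0.003 and 0.03. The mean of the 32 genes was 8.87 and 8.81 in S63del/Chop null, 8.96 and 8.92 in S63del, 8.61 and 8.56 in Chop null, and 8.61 and 8.74 in WT.

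Lgals3, galectin 3, measured 10.92 and 10.78 in S63del/Chop null, 10.96 and 10.71 in S63del, 9.23 and 8.95 in Chop null, and 9.16 and 9.41 in WT. The mast cell tryptase Tpsb2 was 0.20 lower (-0.68 to 0.28) and carboxypeptidase Cpa3 0.22 lower (-0.80 to 0.37). Other mast cell genes lay above 0, such as Tpsab1 (0.12) and Kit (0.09). Of 20 mast cell and lymphocyte genes 0 passed, 11 lay below 0 and 9 above (median -0.07). Of 25 cytokine and chemokine genes, 0 passed and the median was -0.04. The chemokine Cxcl14 was 8.996 and 8.79 in S63del/Chop null, 9.10 and 8.71 in S63del, 6.19 and 5.25 in Chop null, and 6.18 and 6.02 in WT. Ccl3, a chemokine for monocytes, differed by -0.33 (-0.64 to -0.02). Timp1, an inhibitor of metalloproteases, measured 9.32 and 8.88 in S63del/Chop null and 9.34 and 9.20 in S63del, and was called higher than WT in both. The 21 genes of antigen presentation and interferon had a median of 0.06, and the 21 of the acute phase and complement -0.02, with 0 passing in each. H2-K1, a class I molecule, differed by 0.16 (-0.14 to 0.45).

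Endothelial and pericyte genes had the largest share on 1 side of 0 among the lists with over 8 measured genes. Of 25, 24 lay above 0 (96%, against 45.4% of all genes) with a median of 0.23, and 0 passed the threshold. An unadjusted p under 0.05 was found for 5 of them (20%, against 3.76% of all genes). Their mean level was 8.68 and 8.82 in S63del/Chop null, 8.45 and 8.59 in S63del, 8.69 and 8.57 in Chop null, and 8.85 and 8.87 in WT. Both S63del arrays lay below both S63del/Chop null arrays, and these below both WT arrays. The Chop null arrays did not keep to this order, with replicate 2 (8.57) below S63del replicate 2 (8.59).

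Cdh5, the adhesion molecule of endothelial junctions, measured 7.10 and 7.76 in S63del/Chop null and 6.96 and 7.07 in S63del (0.41; 0.04 to 0.78; adjusted p = 1). Without S63del/Chop null replicate 2 it was 0.08, and without replicate 1 it was 0.74. Pecam1, a marker of all endothelium, was 8.51 and 8.30 in S63del/Chop null and 8.08 and 8.07 in S63del (0.33; 0.01 to 0.65). Vwf, the clotting factor of endothelium, differed by 0.36 (0.00 to 0.72), Esam by 0.28 (0.03 to 0.54), and Pdgfrb, the receptor of pericytes, by 0.38 (0.02 to 0.75). The other probe set of Pdgfrb gave 0.01 and that of Cdh5 0.46. Tek, the angiopoietin receptor, differed by 0.04 (-0.38 to 0.45). The list's median was 0.35 in the pair of arrays with less muscle signal and 0.12 in the pair with more, and 0.22 with the muscle level as a covariate. At the other ages it was 0.01 at P5 and -0.09 at 4 months.

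**Figure D4:**
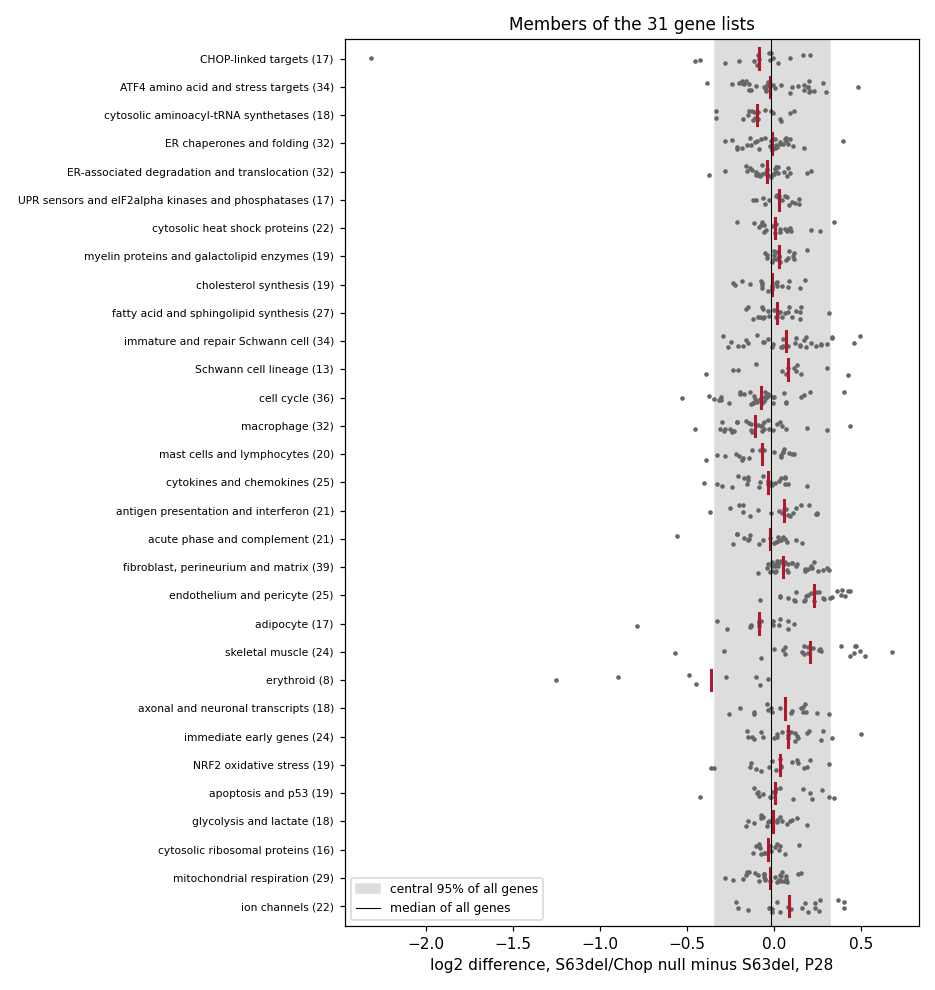
Log2 difference of each measured member of 31 gene lists, S63del/Chop null minus S63del at P28; points are genes, red bars medians, the black line the median of all genes and the grey band the central 95% of all genes (-0.34 to 0.32). Most medians lie close to that of all genes; the endothelial median is 0.23 and the erythroid one -0.36.

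Red cell genes lay the other way. All 8 measured were below 0 (100%, against 54.6% of all genes), with a median of -0.36, and 0 passed the threshold. Alas2, which starts haem synthesis in red cells, measured 7.97 and 7.98 in S63del/Chop null, 8.76 and 9.70 in S63del, 9.15 and 9.47 in Chop null, and 9.10 and 9.64 in WT (-1.25; -2.13 to -0.37; adjusted p = 1). Hbb-b2, a beta globin, was 7.59 and 7.74 in S63del/Chop null and 7.97 and 9.16 in S63del (-0.90). Its other probe set gave 0.51 and the mean of both -0.19, and without S63del replicate 2 it was -0.30. Bpgm, the red cell's bisphosphoglycerate mutase, was 0.49 lower (-0.96 to -0.02). Of the S63del arrays replicate 2 was the higher, and the median without it was -0.11. Blood in the tissue was not measured by any other means here.

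Fibroblast, perineurium and matrix genes lay above 0 in 32 of 39 (82.1%, against 45.4% of all genes), with a median of 0.05 and 0 passing. Col1a1, the alpha 1 chain of type I collagen, measured 13.44 and 13.79 in S63del/Chop null and 13.31 and 13.31 in S63del (0.30; 0.01 to 0.60). Col14a1, a collagen on fibril surfaces, was 10.36 and 10.30 in S63del/Chop null and 10.08 and 10.14 in S63del, and was called lower than WT in both (-0.37 and -0.59). Mmp14, a membrane protease of matrix, differed by 0.29 (0.01 to 0.56). Dcn and Pdgfra differed by -0.01 and 0.02, and Itgbl1, the lowest of the list, by -0.09.

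The remaining lists gave no call. Klf4, an immediate early factor, measured 8.51 and 8.80 in S63del/Chop null and 8.04 and 8.25 in S63del (0.50; 0.14 to 0.87; adjusted p = 1), and Jund, a relative of Jun, differed by 0.28 (0.03 to 0.54). The other probe set of Klf4 gave 0.08. The 24 immediate early genes had a median of 0.08. The 19 genes of the NRF2 oxidative stress response had a median of 0.03, and Gsta4, a glutathione transferase, differed by -0.34 (-0.62 to -0.07). Medians were -0.02 for 29 genes of mitochondrial respiration, -0.03 for 16 ribosomal proteins, -0.01 for 18 glycolytic genes, 0.07 for 18 axonal and neuronal transcripts and 0.09 for 22 ion channels. The Schwann cell lineage list had a median of 0.08 over 13 genes.

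After Ddit3, the smallest p were those of Ccr6, Ddx42, Lrrc56, A230006K03Rik, Krtcap3 and Ribc1, none of them called. Ccr6, a chemokine receptor, measured 5.28 and 5.13 in S63del/Chop null and 5.83 and 5.88 in S63del (-0.65; -0.91 to -0.38; adjusted p = 0.489). Ddx42, an RNA helicase, was 7.23 and 7.19 in S63del/Chop null and 6.67 and 6.65 in S63del (0.55; 0.31 to 0.78; adjusted p = 0.518). Lrrc56 and A230006K03Rik were each 0.62 higher and Krtcap3 0.57 and Ribc1 0.53 lower, with adjusted p from 0.723 to 0.782. Man1b1, a mannosidase that trims glycoproteins in the secretory pathway, was 7.88 and 8.08 in S63del/Chop null, 7.40 and 7.35 in S63del, 8.25 and 7.99 in Chop null, and 8.05 and 7.80 in WT, with S63del below the other 3 groups (0.61; 0.28 to 0.93; adjusted p = 1). Spn, a leukocyte sialoprotein chosen after its values were seen, was 5.53 and 5.72 in S63del/Chop null and 6.29 and 6.30 in S63del. It was called (-0.67, adjusted p = 0.0165) only when Chop null replicate 2 was left out of the fit.

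To follow the genes that the mutant changes, those called in S63del against WT at P5 were read at P28. The P28 arrays are other arrays than those whose means chose the genes. The spread behind the calls came from all 24 arrays, those at P28 included. There were 142 higher and 156 lower, 2.4% of all genes, while at 4 months 0 genes were called in limma (577 had an unadjusted p under 0.05). The 142 genes had a mean level at P28 of 8.34 and 8.35 in S63del/Chop null, 8.41 and 8.37 in S63del, 7.76 and 7.78 in Chop null, and 7.74 and 7.85 in WT. The 156 genes had 9.30 and 9.36 in S63del/Chop null, 9.35 and 9.29 in S63del, 9.73 and 9.54 in Chop null, and 9.68 and 9.68 in WT. In both sets the S63del genotypes lay together and apart from the others.

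The median difference between S63del/Chop null and S63del was -0.04 for the raised genes, with 1 called lower (Ddit3), and 0.00 for the lowered genes, with 0 called. An interval within 1 log2 unit was found for 140 of 142 raised genes (98.6%) and all 156 lowered genes (100%). The share of all genes was 98.2%. The P5 calls and these intervals use the same spread per gene, so the calls favour genes with narrow intervals. Against WT at P28 the raised genes had a median of 0.47 in S63del/Chop null and 0.52 in S63del, comparisons that share the WT arrays. For the lowered genes the median was -0.30 in both.

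**Figure D5:**
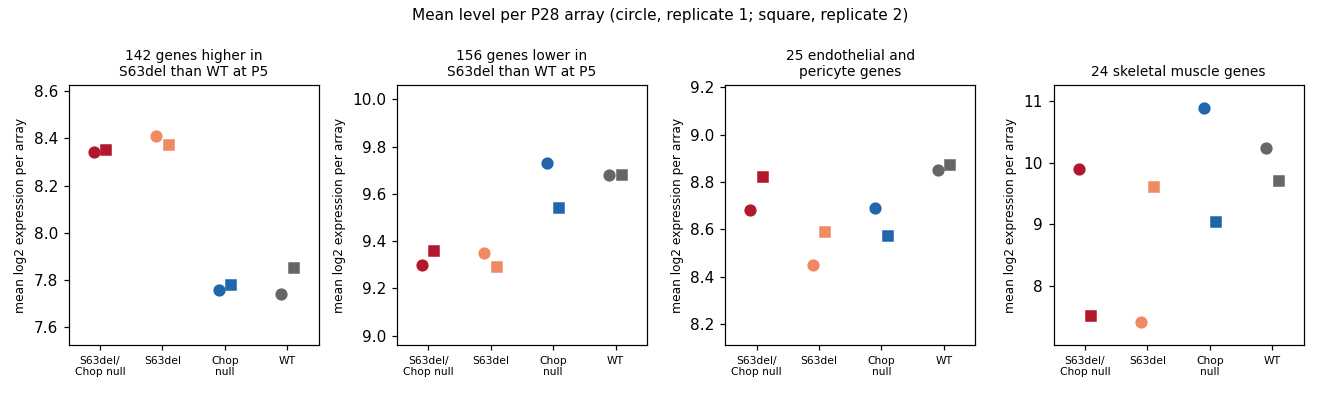
Mean log2 expression per P28 array of the genes called higher or lower in S63del than WT at P5, of endothelial and pericyte genes and of skeletal muscle genes; circles are replicate 1 and squares replicate 2. S63del/Chop null and S63del lie together in the first 2 panels, and in the muscle panel each has 1 high and 1 low array.

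Whether loss of Chop acted differently in S63del and in WT nerve was tested as an interaction. By limma 0 of 12393 genes passed (smallest adjusted p = 0.171), and 972 (7.84%) had an unadjusted p under 0.05, above the 5% that the threshold alone allows. Ddit3 differed by -2.32 in S63del and by -1.07 between Chop null and WT, an interaction of -1.24 (-1.82 to -0.66; adjusted p = 0.341). Fam13c measured 7.49 and 7.75 in S63del/Chop null, 6.99 and 6.92 in S63del, 6.26 and 5.71 in Chop null, and 6.67 and 6.79 in WT, with an interaction of 1.41 (0.91 to 1.91; adjusted p = 0.171). Cdca4, a cell division gene, had one of 1.06 (0.67 to 1.45; adjusted p = 0.171). The Chop null pair, whose replicates stand furthest apart, enters each of these interactions. Between S63del/Chop null and S63del the probe set used for Fam13c gave 0.67 and its other one 0.14. For Cdca4 the probe set used gave 0.39 and the others -0.07 and 0.03.

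The effect of Chop loss at P28 was also set against that at the other ages. At P5, 2 genes were called (0.0161% of those tested), Ddit3 and Car6, and at 4 months 1 (0.00807%), Ddit3. Car6, a secreted carbonic anhydrase with a form that CHOP induces, measured 3.44 and 3.58 in S63del/Chop null and 5.90 and 5.61 in S63del at P5. At P28 it was 3.89 and 3.79 in S63del/Chop null and 3.75 and 3.98 in S63del, and at 4 months 3.51 and 3.73 in S63del/Chop null and 3.73 and 3.61 in S63del. S63del at P5 thus stood apart from all other groups of both genotypes. The difference between the effects at P28 and P5 was 2.22 (1.41 to 3.03), with an adjusted p = 0.30.

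By limma 0 genes passed in P28 against P5 (212 or 1.71% with an unadjusted p under 0.05) and 0 in P28 against 4 months (367 or 2.96%). Ddit3 was -2.68 at P5, -2.32 at P28 and -2.38 at 4 months, with no difference between ages past the threshold. Nrk, a kinase, had the smallest p against 4 months. It measured 6.63 and 7.10 in S63del/Chop null and 7.29 and 7.55 in S63del at P28, a difference of -0.55, against 0.40 at 4 months (adjusted p = 0.999). The other Nrk probe sets differed by 0.05 and -0.31 at P28.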

How the data were processed

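Total RNA of mouse sciatic nerve was hybridised to Affymetrix arrays, 2 per group in 12 groups, per the labels. The authors deposited log2 expression per probe set; the values themselves show the log2 scale. Normalization, software and genome build are not stated in the labels or file headers. The number of arrays limits the precision. The labels call replicates biological; where they share animals or processing, p-values measure only the spread between these arrays.

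Of 22690 probe sets, 64 are controls, 20380 have 1 gene symbol in the platform annotation, 691 several and 1555 none, and the last 2 kinds were not named. Gene IDs of 20351 matched RefSeq GRCm38.p6, used for names and promoters. The probe set with the highest mean over 24 arrays stood for each of 4956 genes with more than 1, giving 12393 genes. Other probe sets of such a gene can differ from it, and only some of their values are printed.

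Means of 12 groups were fitted with limma 3.58.1 (lmFit, eBayes; statmod 1.5.0, R 4.3.3), with 12 residual degrees of freedom and Benjamini-Hochberg adjustment over all genes. The fit was tested on simulated data. Alternatives were another quantile normalization, the mean of a gene's probe sets, genes under the 40th percentile left out, the 8 P28 or the 4 compared arrays alone, Chop null replicate 2 left out, a replicate block, array weights, robust estimation with a trend, and each compared array left out. Added after seeing the data were a crossed block, the muscle level as a covariate, the muscle-rich and the muscle-poor pair left out, and the genes called at P5 alone, because 0 genes were called at both P5 and 4 months. Other columns of per-sample values numbered 0.

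Named genes were to be the called genes, of each list up to 4 genes by p, 15 genes with the smallest p where none is called, and a fixed stress and Schwann cell set; Spn, Bbc3, Herpud1, Slc7a11 and Ppbp were added for their values or sequence. Not all are printed. There were 31 lists with 766 genes, and 689 were measured. Members and lists were chosen with earlier results of these data known. Lists are described by counts and medians, with no test. Some genes are not analysed here.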

Additional observations from a re-analysis of the deposited data

How the results depend on the processing

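Ddit3 was called lower in S63del/Chop null than in S63del under every alternative run, with differences from -2.38 to -2.27 and adjusted p up to 0.0205. The count of genes called was 1 under all of them except that it was 2 without Chop null P28 replicate 2, when Spn joined Ddit3. In the difference between P28 and P5 the count was 0, and 1 (Car6) after another quantile normalization, with array weights, and without Chop null P28 replicate 2. The interaction and the difference from 4 months kept counts of 0.

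Over all genes, deviations from the group means of same-numbered S63del/Chop null and S63del arrays correlated at -0.15. That value includes the muscle genes, which run opposite ways here, so it cannot settle whether the arrays were paired. The Gapdh 3' to 5' difference was lower in replicate 1 than in replicate 2 in every P28 genotype (Chop null 0.02 and 0.34, WT -0.05 and 0.30). So was the mean of the fat cell genes. Whether same-numbered arrays share processing was not tested. With the replicate number as a block 1 gene was called, and with the numbers crossed also 1. The labels tie no arrays to a shared litter or day.

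Of the 90 genes named, 64 kept the sign of their difference under every alternative and 26 did not, and all 26 were uncalled throughout. Averaging a gene's probe sets gave Atf4 -0.04, Cxcl14 0.04, Ero1a 0.15, Ero1b 0.07, Herpud1 0.05 and Mbp 0.02, and another quantile normalization gave Car6 0.01, each of the opposite sign. Leaving out 1 compared array, or 1 of each group, turned the sign within these ranges: Acta1 (-1.12 to 2.48), Atf3 (-0.08 to 0.35), Atf4 (-0.15 to 0.16), Car6 (-0.14 to 0.09), Chac1 (-0.06 to 0.46), Cxcl14 (-0.31 to 0.29), Egr2 (-0.16 to 0.20), Ero1b (-0.18 to 0.14), H2-K1 (-0.05 to 0.36), Herpud1 (-0.16 to 0.08), Lgals3 (-0.18 to 0.21), Lss (-0.03 to 0.33), Mag (-0.06 to 0.23), Mbp (-0.10 to 0.03), Pdia6 (-0.55 to 0.12), Pmp22 (-0.04 to 0.04), Pou3f1 (-0.15 to 0.24), Ppp1r15a (-0.13 to 0.07), Sox10 (-0.24 to 0.50), Tek (-0.11 to 0.18), Timp1 (-0.46 to 0.12), Tnfrsf10b (-0.94 to 0.09), Trib3 (-0.47 to 0.08), Wif1 (-0.07 to 0.55) and Xbp1 (-0.17 to 0.21). The median of the axonal list was -0.01 with probe sets averaged and -0.01 with dim genes left out. Other list medians moved by more than the spread of the replicates in such omissions, over these ranges: cytosolic aminoacyl-tRNA synthetases (-0.10 to -0.04), ER chaperones and folding (-0.07 to 0.04), ER-associated degradation and translocation (-0.10 to 0.02), UPR sensors and eIF2alpha kinases and phosphatases (-0.07 to 0.13), fatty acid and sphingolipid synthesis (-0.06 to 0.17), macrophage (-0.23 to -0.08), cytokines and chemokines (-0.08 to -0.02), acute phase and complement (-0.13 to 0.03), fibroblast with perineurium and matrix (0.05 to 0.14), endothelium and pericyte (0.12 to 0.35), adipocyte (-0.57 to 0.43), axonal and neuronal transcripts (0.04 to 0.15), immediate early genes (-0.09 to 0.25), NRF2 oxidative stress (-0.06 to 0.13), glycolysis and lactate (-0.07 to 0.06), cytosolic ribosomal proteins (-0.11 to 0.00) and genes higher in S63del than WT at P5 (-0.04 to 0.00). Medians not listed here moved too, without passing that spread. Among them were CHOP-linked targets (-0.14 to 0.04), ATF4 targets (-0.09 to 0.06), immature and repair Schwann cell (-0.03 to 0.23) and skeletal muscle (-1.06 to 1.84). The cause of these moves was not tested. A group left with 1 array was assumed to vary like the others. The 2 arrays per group limit the size of difference that could be called.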
